A study of Homo sapiens with 38 samples.

Results

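The nuclear genes for the subunits of respiratory complexes I and III were followed while human embryonic stem cells left pluripotency under WNT pathway activation. The members were picked by gene name, but the set was chosen with earlier results of these data known. They were 37 genes of the NDUFA, NDUFB, NDUFC, NDUFS and NDUFV series and 9 genes of complex III. Those of complex III were UQCRB, UQCRC1, UQCRC2, UQCRFS1, UQCRH, UQCRQ, UQCR10, UQCR11 and CYC1. Together they make 46 of the 43412 genes in the table. All cultures were H9, an established human embryonic stem cell line, and total RNA was sequenced. In the CHIR arm the GSK3 inhibitor CHIR99021 was given at 10 µM and cells were taken at 8, 16, 24, 48 and 72 h. In the Wnt3a arm the recombinant ligand was given at 240 ng/ml and cells were taken at 8, 24, 48, 72, 96 and 120 h. The bcat arm used H9 cells with a stably integrated, doxycycline-regulated construct, and 1 µg/ml doxycycline switches on a constitutively active beta-catenin lacking its N-terminus (deltaN90). Cells were taken at 8, 16, 24, 48 and 72 h. Each arm was set against its own 0 h cultures, which were undifferentiated H9 cells in the CHIR and Wnt3a arms and the uninduced construct line in the bcat arm. All treated cultures had been plated at full confluence and moved from mTeSR1, the maintenance medium, to RPMI1640 with B27 lacking vitamin A, and medium and agent were renewed every 24 h. The change of medium therefore came with the agent in every arm, and medium and agent cannot be told apart here. No group received doxycycline without the construct, and the labels do not say whether the construct line was a single clone.

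Complex I takes electrons from NADH at the tip of a matrix arm, passes them along flavin and iron-sulfur clusters to ubiquinone, and pumps protons through a membrane arm. Complex III takes the electrons from ubiquinol through the Rieske iron-sulfur protein and cytochrome c1 to cytochrome c, which carries them to complex IV. Most subunits are encoded in the nucleus and a few in mitochondrial DNA, so both genomes have to be expressed for assembly. Primed human pluripotent cells are known for a strongly glycolytic metabolism, and the balance with respiration shifts in different ways as germ layers form.

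Each of the 19 groups had 2 libraries, but the columns of the Wnt3a 72 h libraries were identical, so they counted as 1 and 37 libraries were compared. Depth ran from 2.45 to 65.75 M estimated counts per library (M, counts divided by 1e6), with a median of 18.99 M. Ribosomal RNA took a median of 5.14% of counts, but 34.1% in bcat 0 h replicate 1, 60.4% in bcat 24 h replicate 1 and 60.3% in bcat 48 h replicate 2. These 3 libraries and the shallowest, Wnt3a 0 h replicate 1, were held in doubt. Where replicate 2 of bcat 0 h or of Wnt3a 0 h is left out below, only a library in doubt remains as that arm's 0 h control. Mitochondrially encoded RNA took 0.369% to 1.55% of counts in bcat libraries and 6.77% to 16.6% in the other arms. The labels call replicates biological without naming separate cultures, so p-values measure the spread between these libraries. The cells matched their labels: the summed level of POU5F1, NANOG, SOX2, L1TD1 and TDGF1 was 1550 to 2327 CPM (counts in every 1e6, scaled to the effective library size) at 0 h over the 3 arms. Levels below are CPM, changes are log2 differences from edgeR's quasi-likelihood fit with their standard error (SE), and a gene was called at a Benjamini-Hochberg adjusted p under 0.05. All 46 members passed the filter on low counts. The measured samples are bulk cultures, in which fewer cells of a type and less RNA per cell cannot be told apart.

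The promoters of 4 members that the results turn on are shown because these genes did not move alike: NDUFS4 rose where most called members fell, and NDUFA9, NDUFS6 and UQCR11 were among the members that fell furthest. Of the 46 members 38 matched an entry in RefSeq's promoter table (GRCh38.p14). The 250 bases before each transcription start are printed on the gene's own strand, and capitals mark matches to the motifs searched. NDUFS4 lies at chr5:53560389-53560638 on the plus strand, NDUFA9 at chr12:4648864-4649113 on the plus strand, NDUFS6 at chr5:1801157-1801406 on the plus strand and UQCR11 at chr19:1605463-1605712 on the minus strand.
NDUFS4: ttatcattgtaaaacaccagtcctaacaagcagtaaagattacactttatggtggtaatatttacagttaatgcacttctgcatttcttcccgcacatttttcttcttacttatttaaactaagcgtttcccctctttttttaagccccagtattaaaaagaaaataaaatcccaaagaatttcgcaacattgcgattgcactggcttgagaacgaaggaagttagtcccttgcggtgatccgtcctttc
NDUFA9: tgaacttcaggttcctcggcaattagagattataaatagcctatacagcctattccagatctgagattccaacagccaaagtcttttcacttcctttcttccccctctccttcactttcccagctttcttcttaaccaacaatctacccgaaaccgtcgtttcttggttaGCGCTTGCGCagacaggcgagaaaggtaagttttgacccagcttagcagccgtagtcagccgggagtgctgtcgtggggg
NDUFS6: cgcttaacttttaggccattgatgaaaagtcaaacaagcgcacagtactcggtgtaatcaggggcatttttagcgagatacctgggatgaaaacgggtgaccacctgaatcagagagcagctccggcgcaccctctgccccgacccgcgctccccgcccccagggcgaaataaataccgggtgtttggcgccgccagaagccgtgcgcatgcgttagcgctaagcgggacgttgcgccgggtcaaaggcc
UQCR11: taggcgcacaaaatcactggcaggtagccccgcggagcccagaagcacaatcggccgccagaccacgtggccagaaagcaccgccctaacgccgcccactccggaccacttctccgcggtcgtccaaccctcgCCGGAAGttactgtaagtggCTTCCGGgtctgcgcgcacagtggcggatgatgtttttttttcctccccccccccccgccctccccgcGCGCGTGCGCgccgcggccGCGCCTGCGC
The window searched was 300 bases, 250 before and 50 after the start, on both strands. The motif of NRF1, a factor known for nuclear respiratory genes, was searched as GCGCA, any base and GCGC in a row, and was found in 10 of the 38 member promoters (26.3%), against 6.98% of the 27305 promoters in the table. The ETS-type motif CCGGAAG was found in 8 members (21.1%), against 12.2% of all promoters. The YY1 motif AAGATGGC was found in 8 members (21.1%), against 3.52% of all promoters. In the printed stretches the NDUFA9 promoter held an NRF1 match whose first base lay at -80 from the start. The UQCR11 promoter held NRF1 matches at -29 and -10 and ETS matches at -117 and -97. The printed bases of NDUFS4 and NDUFS6 held none of these letters, and the YY1 matches of NDUFS4 and NDUFA9 lay in the 50 bases after the start. The 10 members with an NRF1 match had a median log2 change of -0.51 at bcat 72 h, against -0.30 in the 28 without. At Wnt3a 96 h the order was the other way, with -0.46 in members with a match, against -0.55 in members without. The NRF1 medians were close at CHIR 72 h (-0.13 with a match and -0.14 without) and at Wnt3a 120 h (-0.34 and -0.34). At bcat 72 h the medians with and without a match were -0.38 and -0.35 for ETS, and -0.37 and -0.34 for YY1.

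Over the 16 comparisons of a treated time with its own 0 h cultures, 40 of the 46 members were called lower at least once and 6 were called higher at least once. The share of all genes called at least once was not computed, so counts over several comparisons have no background here. In single comparisons 1.18% (Wnt3a 8 h) to 21% (Wnt3a 96 h) of all genes were lower, and 2.28% to 18.8% at those 2 times were higher. The lower calls were concentrated at the late times of the bcat and Wnt3a arms, while few stood at CHIR 72 h. CYC1 (cytochrome c1), UQCRC2 (a core protein on the matrix side of complex III), NDUFV2 (an iron-sulfur subunit beside the NADH site) and NDUFB9 (a membrane-arm subunit) were called lower in 7 comparisons each. NDUFS4, an accessory subunit that holds the NADH-oxidising module on complex I and whose loss causes Leigh syndrome, was called higher in 6 and lower in 1. NDUFV1, NDUFA12, NDUFA13 and NDUFB3 were called in no comparison, although NDUFV1 showed how wide the spread could be, at 39.8 and 67.6 CPM in the Wnt3a 0 h libraries. Comparisons within an arm share that arm's 0 h libraries and are not independent of each other. Counts of calls per gene were made after their values had been seen.

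**Figure D1:**
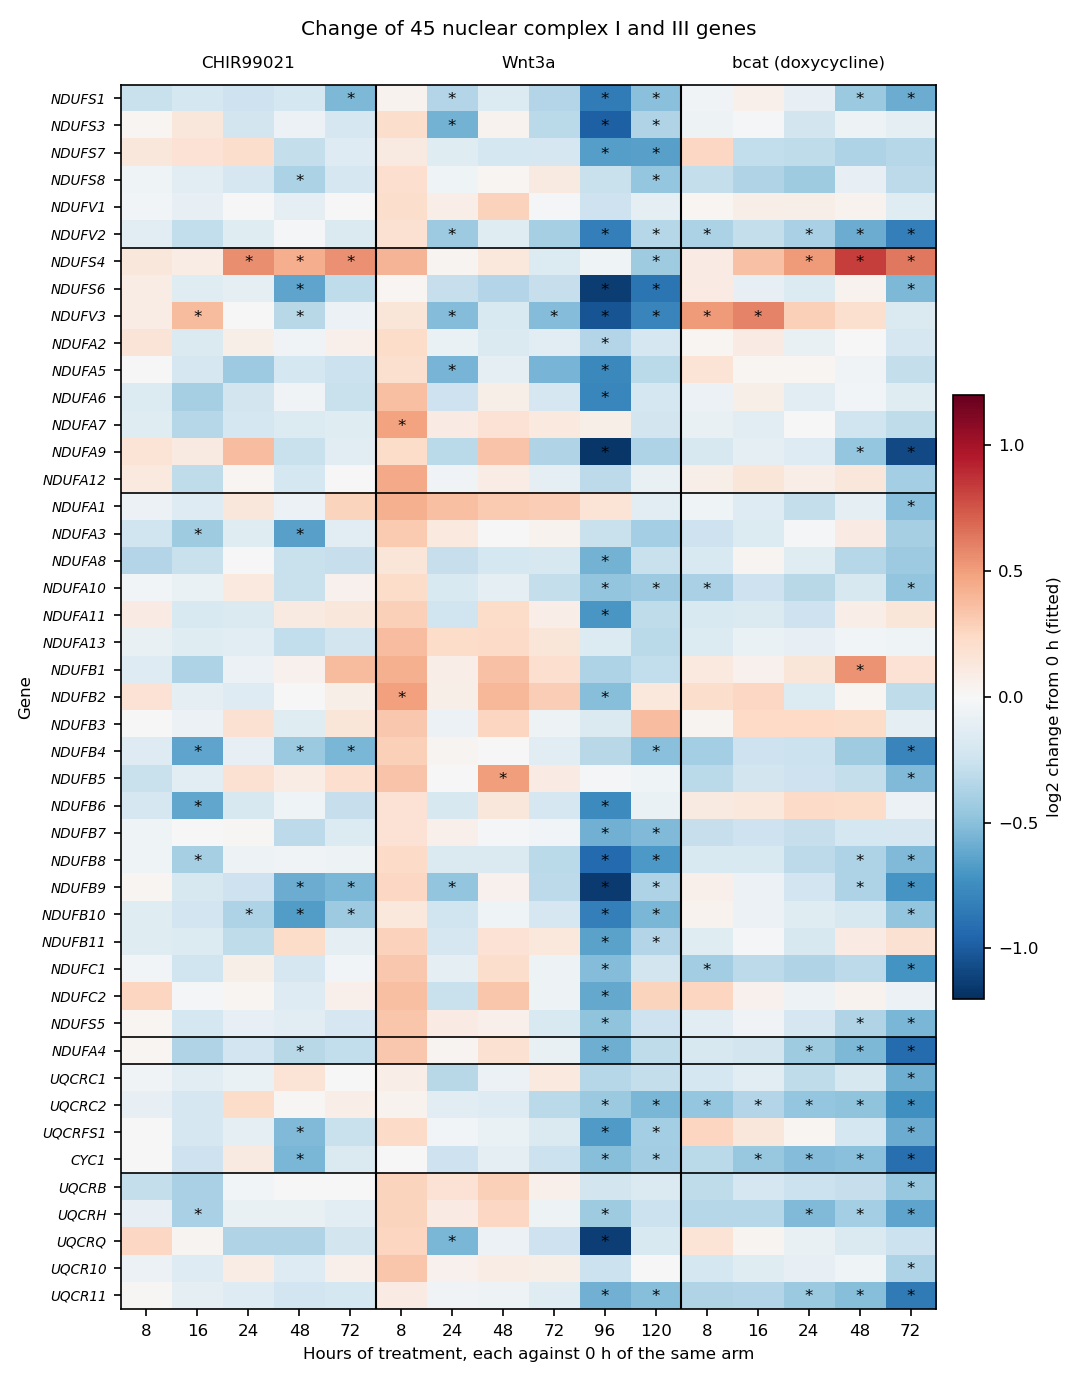
Heat map of the log2 change of 45 of the 46 members (rows, grouped by role) in each treated group against its own 0 h cultures (columns, by arm and time in hours). Asterisks mark members called by edgeR at an adjusted p under 0.05; lower calls crowd the bcat 72 h, Wnt3a 96 h and Wnt3a 120 h columns, and the NDUFS4 row is higher at late CHIR and bcat times.

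In the bcat arm the lower calls were most numerous at the last time. The count of members called lower was 4 at 8 h, 2 at 16 h, 6 at 24 h, 11 at 48 h and 22 at 72 h, with 1, 1, 1, 2 and 1 called higher. With RLE scaling the split at 16 h was 1 higher and 7 lower. Among all 24304 genes tested, 8.01% were lower at 8 h, 4.69% at 16 h, 5.96% at 24 h, 10.1% at 48 h and 13.6% at 72 h, and 10.7%, 6.23%, 6.87%, 11.2% and 13.6% were higher at those times. The median log2 change of the members was -0.14 at 8 h, -0.10 at 16 h, -0.18 at 24 h, -0.19 at 48 h and -0.40 at 72 h, against 0.06 for all tested genes at 72 h. The summed member level was 2416 and 2150 CPM in the bcat 72 h libraries, against 2878 and 3350 CPM in the bcat 0 h libraries, so the groups did not overlap. In 33 members both 72 h libraries lay below both 0 h libraries, as they did in 24.5% of all tested genes. The lower calls at 72 h rested partly on bcat 0 h replicate 2: 12 members were lower and 2 higher without it. Without bcat 72 h replicate 2, 16 were lower.

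Complex III carried the most uniform change at bcat 72 h, where all 4 of its core and redox members and 4 of its 5 small members were called lower. The summed complex III level was 699 and 599 CPM at 72 h, against 924 and 1063 CPM at 0 h. CYC1 had 49 and 51.6 CPM in bcat 72 h libraries, against 89.1 and 97.9 CPM in bcat 0 h libraries (log2 change -0.90 ± 0.14 (SE), adjusted p = 7.1e-06). UQCRC2 had 123 and 114 CPM at 72 h, against 186 and 208 CPM at 0 h (log2 change -0.74 ± 0.10 (SE), adjusted p = 1.5e-06). Neither gene's groups overlapped. UQCRFS1, the Rieske iron-sulfur protein, had 71.8 and 60.3 CPM, against 89.1 and 109 CPM (log2 change -0.59 ± 0.13 (SE), adjusted p = 0.000681), and lost its call without bcat 0 h replicate 2 (-0.43, adjusted p = 0.0579). UQCRC1, the other core protein, had 117 and 88.4 CPM, against 139 and 168 CPM (log2 change -0.59 ± 0.18 (SE), adjusted p = 0.0157), and it lost its call without bcat 0 h replicate 2 (adjusted p = 0.214) or bcat 72 h replicate 2 (adjusted p = 0.207). UQCR11, a small subunit whose promoter is printed above, had 27.8 and 22.4 CPM, against 47.9 and 43.4 CPM (log2 change -0.85 ± 0.14 (SE), adjusted p = 1.91e-05). UQCRH, the hinge protein between cytochrome c1 and cytochrome c, had 132 and 113 CPM, against 169.7 and 208 CPM (log2 change -0.63). UQCRQ, the exception among the small members, had 29.6 and 25.3 CPM, against 32.9 and 33 CPM (log2 change -0.26, adjusted p = 0.268).

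Complex I was lower in parts. At bcat 72 h, 2 of the 7 core subunits of its matrix arm, 2 of 9 accessory subunits of that arm and 9 of 20 accessory subunits of the membrane arm were called lower, with median log2 changes of -0.33, -0.29 and -0.42. NDUFA9, an accessory subunit at the junction of both arms, showed the largest change of all members, at 21.6 and 22.6 CPM in bcat 72 h libraries against 51.5 and 43.2 CPM in bcat 0 h libraries (log2 change -1.09 ± 0.16 (SE), adjusted p = 2.72e-06). NDUFV2 had 59 and 52.2 CPM at 72 h, against 93.5 and 103 CPM at 0 h (log2 change -0.82 ± 0.13 (SE), adjusted p = 1.08e-05). NDUFS1, the large iron-sulfur subunit of the NADH module, had 97.8 and 83.6 CPM, against 129 and 145 CPM (log2 change -0.60 ± 0.11 (SE), adjusted p = 9.43e-05). None of these 3 genes had overlapping groups. NDUFV1, which binds NADH and the flavin beside NDUFS1 and NDUFV2, had 69 and 58.3 CPM at 72 h, against 66.5 and 73.6 CPM at 0 h, and its groups overlapped (log2 change -0.14, adjusted p = 0.562). NDUFS3, a core subunit of the quinone-binding part, had 39.1 and 40.6 CPM, against 41.5 and 44.4 CPM (log2 change -0.11, adjusted p = 0.555). In the membrane arm the called changes ran down to -0.79 (NDUFB4), -0.72 (NDUFC1) and -0.71 (NDUFB9). NDUFA4, which carries an NDUF name but is now placed in complex IV, had 119 and 98.8 CPM, against 186 and 227 CPM (log2 change -0.93 ± 0.13 (SE), adjusted p = 1.79e-06).

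**Figure D2:**
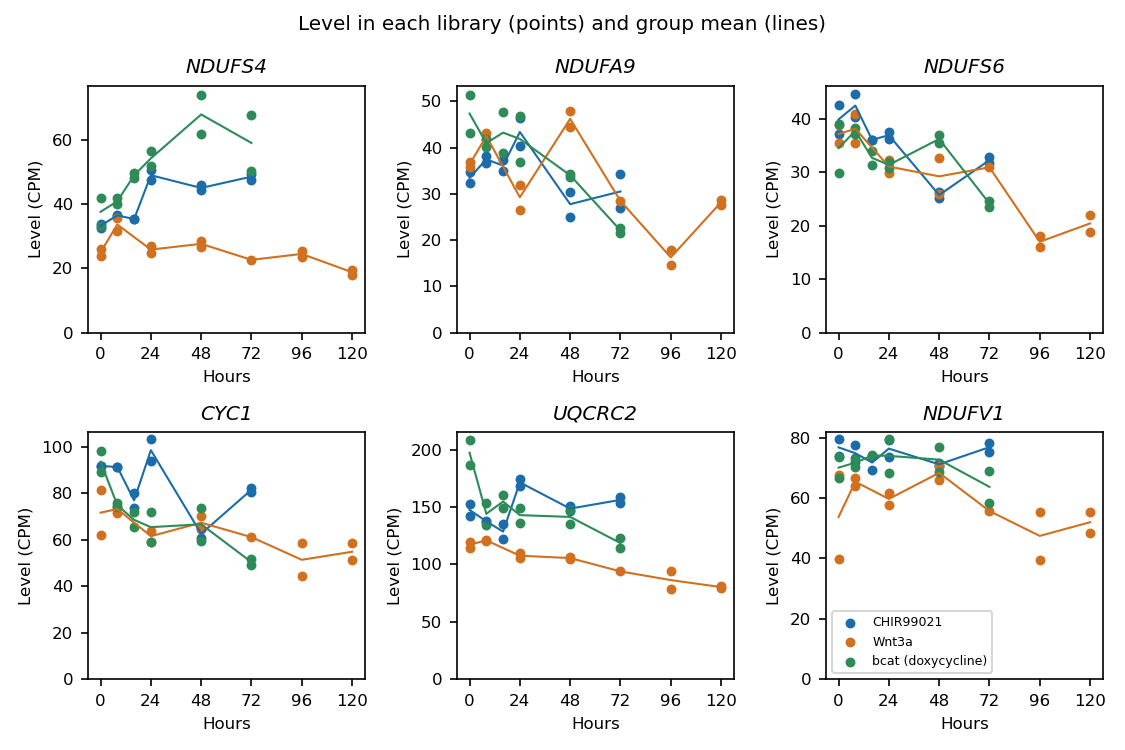
CPM of NDUFS4, NDUFA9, NDUFS6, CYC1, UQCRC2 and NDUFV1 in every library, by hours of treatment and arm; points are libraries and lines join group means. NDUFS4 climbs in the CHIR and bcat arms, NDUFA9 and CYC1 reach their lowest bcat level at 72 h, and NDUFV1 stays within its spread.

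The lower transcripts did not appear together. UQCRC2 was called lower at every bcat time, beginning with 135 and 153 CPM at 8 h (log2 change -0.46 ± 0.10 (SE), adjusted p = 0.00143), although that call was lost without bcat 8 h replicate 1 (adjusted p = 0.0515) and the call at 24 h was lost without bcat 0 h replicate 2 (adjusted p = 0.058). NDUFC1, a small membrane subunit, and NDUFA10, a membrane-arm subunit with a kinase-like fold, were also lower at 8 h (log2 changes -0.42 and -0.39), but both calls were lost whichever of the 4 libraries was left out. The 5 calls at 8 h numbered 3 without bcat 0 h replicate 1 and 2 without bcat 0 h replicate 2, bcat 8 h replicate 1 or bcat 8 h replicate 2. CYC1 was called lower from 16 h on, at 65.3 and 71.7 CPM (log2 change -0.46 ± 0.14 (SE), adjusted p = 0.0255). Of the 3 calls at 16 h, 1 was left without bcat 0 h replicate 2, bcat 16 h replicate 1 or bcat 16 h replicate 2. At 24 h UQCRH had 126 and 137 CPM, against 169.7 and 208 CPM at 0 h (log2 change -0.53 ± 0.13 (SE), adjusted p = 0.00404). The UQCRH call was lost without bcat 0 h replicate 2 (adjusted p = 0.152), where 1 call was left at 24 h, and 3 calls were left without bcat 24 h replicate 1. The CYC1 call at 24 h was lost without bcat 0 h replicate 2 (adjusted p = 0.123) or bcat 24 h replicate 1 (adjusted p = 0.109). NDUFV2 had 71.4 and 58.1 CPM at 48 h (log2 change -0.60 ± 0.13 (SE), adjusted p = 0.000845). NDUFA9 still had 34.3 and 33.7 CPM at 48 h (log2 change -0.46 ± 0.15 (SE), adjusted p = 0.0291) and was lower still at 72 h. Between bcat 72 h and bcat 48 h, NDUFA9, NDUFS6 and NDUFA12 were called lower by log2 -0.62, -0.58 and -0.54, where 3.46% of all tested genes were lower. That count of 3 was 1 without bcat 48 h replicate 1 or bcat 72 h replicate 2 and 5 without bcat 48 h replicate 2. NDUFS6, a zinc-binding accessory subunit needed to complete the NADH module, had 24.7 and 23.6 CPM at 72 h, against 35.6 and 37 CPM at 48 h.

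The count at bcat 48 h was the least stable of the late counts in this arm. Its 11 lower and 2 higher calls numbered 6 in all without bcat 0 h replicate 2 and 8 without bcat 48 h replicate 2, a library in which 60.3% of counts were ribosomal RNA. NDUFA4 was lower at 48 h (-0.54) but not without bcat 0 h replicate 2 (adjusted p = 0.107). UQCR11 was lower at 48 h (-0.51) but not without bcat 0 h replicate 1 (adjusted p = 0.0595). NDUFB1, a small membrane-arm subunit, was higher at 48 h (0.54) but not without bcat 0 h replicate 1 (adjusted p = 0.194). Ribosomal RNA took 5.79% to 60.4% of counts across bcat libraries, and its part in these results was not tested beyond leaving libraries out.

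NDUFS4 moved against most called members in the CHIR and bcat arms. In the bcat arm it had 33.2 and 41.9 CPM at 0 h, 39.9 and 41.8 at 8 h, 48.2 and 49.6 at 16 h, 52 and 56.4 at 24 h, 73.9 and 61.8 at 48 h and 67.8 and 50.2 at 72 h. Every library from 16 h on lay above both 0 h libraries, and the change passed the test at 24, 48 and 72 h with 0.51, 0.83 and 0.63 and adjusted p of 0.0101, 2.28e-05 and 0.000612. In the CHIR arm it had 33.8 and 32.7 CPM at 0 h, 36.6 and 36.3 at 8 h, 35.4 and 35.2 at 16 h, 47.4 and 50.5 at 24 h, 45.8 and 44.2 at 48 h and 49.4 and 47.6 at 72 h. It passed the test at 24, 48 and 72 h with changes of 0.56, 0.44 and 0.55 and adjusted p of 0.00222, 0.00732 and 0.00139, and the 24, 48 and 72 h levels lay clear of the 0 h levels. In the Wnt3a arm it had 23.9 and 26 CPM at 0 h, 35.7 and 31.6 at 8 h, 24.8 and 26.9 at 24 h, 26.7 and 28.6 at 48 h, 22.6 at 72 h, 25.5 and 23.5 at 96 h and 18 and 19.6 at 120 h, where it was called lower (-0.43, adjusted p = 0.0209). The changes at 72 h in the CHIR and bcat arms differed by -0.08 ± 0.19 on the log2 scale (SE, adjusted p = 0.876). Calls of NDUFS4 were lost at CHIR 48 h without CHIR 0 h replicate 2 (0.41, adjusted p = 0.0617), at bcat 72 h without bcat 72 h replicate 1 (0.39, adjusted p = 0.0572), and at Wnt3a 120 h when either Wnt3a 0 h replicate 2 or Wnt3a 120 h replicate 1 was left out (adjusted p = 0.275 and 0.106). At bcat 24 h the call was lost without bcat 0 h replicate 1 (0.37, adjusted p = 0.122) or bcat 24 h replicate 2 (0.44, adjusted p = 0.0931).

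The Wnt3a arm was lowest at 96 h, where 31 of the 46 members were called lower and the median log2 change was -0.54. Among all genes tested 21% were lower and 18.8% higher at that time. The summed member level was 1834 and 1624.5 CPM in the Wnt3a 96 h libraries, against 2279 and 2656 CPM in the Wnt3a 0 h libraries, and 38 members had both 96 h libraries below both 0 h libraries, against 29.1% of all genes. The calls covered 5 of 7 core and 6 of 9 accessory subunits of the matrix arm of complex I (median log2 changes -0.66 and -0.77). They covered 13 of 20 membrane-arm subunits, 3 of 4 core and redox members of complex III and 3 of its 5 small members. Without Wnt3a 0 h replicate 2, the deepest library of the set, 19 members were called lower.

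NDUFA9 again led, at 17.8 and 14.7 CPM in Wnt3a 96 h libraries against 35.9 and 36.8 CPM in Wnt3a 0 h libraries (log2 change -1.16 ± 0.15 (SE), adjusted p = 3.61e-07). NDUFB9 had 25.5 and 24.6 CPM at 96 h, against 53.4 and 56.9 CPM at 0 h (log2 change -1.15 ± 0.11 (SE), adjusted p = 2.82e-09). NDUFS6 had 16 and 18 CPM, against 35.6 and 38.8 CPM (log2 change -1.14 ± 0.14 (SE), adjusted p = 7.61e-08). In these 3 genes the 96 h levels were about a log2 unit below the 0 h levels and the groups lay well apart. NDUFS3 had 20.3 and 23.1 CPM at 96 h, against 40.1 and 44.6 CPM at 0 h (log2 change -0.98), and UQCRQ, a small subunit beside cytochrome b, had 19.4 and 17.3 CPM, against 44.6 and 37.4 CPM (log2 change -1.13). NDUFS1 had 76.2 and 72.9 CPM, against 122 and 142 CPM (log2 change -0.84 ± 0.11 (SE), adjusted p = 3.28e-07). UQCRFS1 changed by -0.68, NDUFA4 by -0.58 and UQCRC2 by -0.45 on the log2 scale, all called. CYC1 had 58.4 and 44.3 CPM, against 61.8 and 81.4 CPM (log2 change -0.51 ± 0.14 (SE), adjusted p = 0.00285), but leaving out Wnt3a 0 h replicate 2 took the call away (-0.27, adjusted p = 0.272). UQCRC1 had 114 and 90.6 CPM, against 100.3 and 154 CPM, with overlapping groups (log2 change -0.35, adjusted p = 0.126). NDUFV1 had 55.4 and 39.4 CPM, against 39.8 and 67.6 CPM, and its groups overlapped too.

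At Wnt3a 120 h 20 members were called lower and the median log2 change was -0.33, where 15.6% of all genes were lower and 12.2% higher. The summed level was 1919 and 2048.5 CPM at 120 h, against 2279 and 2656 CPM at 0 h. NDUFS6 had 22 and 18.9 CPM at 120 h (log2 change -0.88 ± 0.14 (SE), adjusted p = 1.14e-05). NDUFV3, an accessory subunit of the NADH module, had 36.2 and 31 CPM at 120 h, against 52.4 and 62.1 CPM at 0 h (log2 change -0.79 ± 0.12 (SE), adjusted p = 1.13e-05). This count was the most fragile of the late ones: 4 members were called without Wnt3a 0 h replicate 2, and with RLE scaling or DESeq2 it split into 2 higher and 17 lower calls.

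The early Wnt3a times differed in direction. At 8 h 34 members had both treated libraries above both 0 h libraries, as 26.8% of all genes did, and the median log2 change was 0.24. Only NDUFA7 and NDUFB2, accessory subunits of the matrix and membrane arms, were called higher (0.49 and 0.49, adjusted p = 0.049 and 0.0438), where 2.28% of all genes were higher and 1.18% lower. NDUFB2 had 39.4 and 35.5 CPM at 8 h, against 26.2 and 26.8 CPM at 0 h. Neither call held when Wnt3a 0 h replicate 1 or either 8 h library was left out. At 24 h 7 members were called lower, where 10.9% of all genes were lower and 9.32% higher, led by NDUFS3 at 28.3 and 29.5 CPM (log2 change -0.57 ± 0.12 (SE), adjusted p = 0.00112). Leaving out Wnt3a 0 h replicate 2 gave 2 such calls, leaving out replicate 1 or 2 of Wnt3a 24 h gave 3 or 4. RLE scaling added 1 higher call at 24 h, and at 48 h it gave 3 higher and 1 lower. At 48 h NDUFB5, a membrane-arm subunit, was called higher (0.50) and 1 member lower, where 7.57% of all genes were higher and 8.57% lower. At 48 h 1 member was called without Wnt3a 0 h replicate 1, and neither call held without Wnt3a 48 h replicate 1. At 72 h, with a single library, 2 members were called lower, NDUFV3 (-0.52) among them, where 7.94% of all genes were lower and 8.43% higher. That library is assumed to vary like the other groups. At 72 h leaving out Wnt3a 0 h replicate 2 gave 0 calls and leaving out replicate 1 gave 5.

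**Figure D3:**
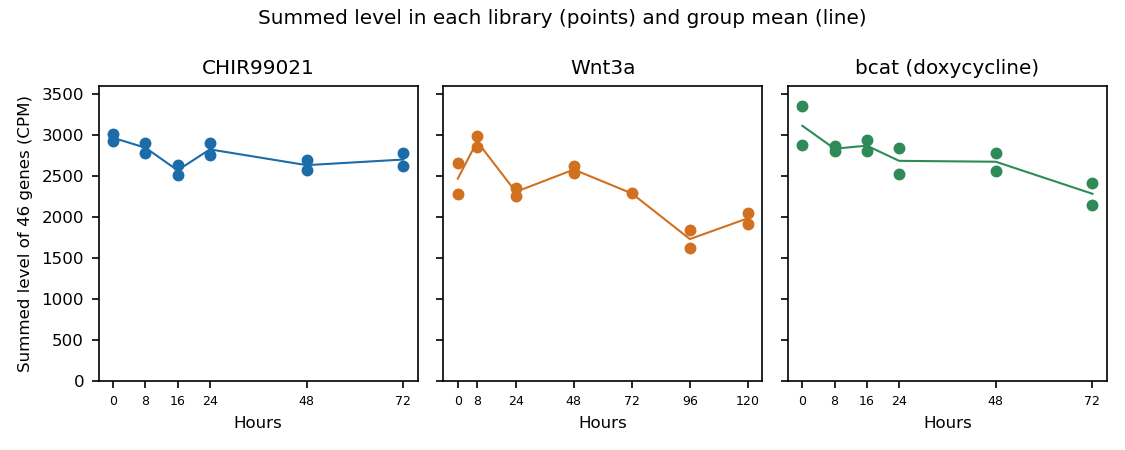
Summed CPM of the 46 members in every library (points) against hours of treatment, by arm, with lines through the group means. The Wnt3a 96 h libraries (1834 and 1624.5) and the bcat 72 h libraries (2416 and 2150) lie below every 0 h library of their arm, and the CHIR arm stays between 2510.3 and 3009.7.

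Fewer members were called under CHIR99021, at any time, than at bcat 72 h or at the last Wnt3a times. At 48 h 11 members were called lower and 1 higher, where 18.1% of all genes were lower and 15.7% higher, with a median of -0.18. At 72 h 4 were lower and 1 higher, where 13.4% of all genes were lower and 11.5% higher, with a median of -0.14. The summed member level was 2777 and 2626 CPM in CHIR 72 h libraries, against 2923 and 3009.7 CPM in CHIR 0 h libraries. At 48 h 6 members were called in all without CHIR 0 h replicate 2, and at 72 h 3 were. With RLE scaling 2 members were higher and 4 lower at 72 h. In the direct comparison of CHIR 72 h with CHIR 48 h 7.51% of all genes were higher and 5.49% lower, and NDUFA3 was the higher and NDUFS1 the lower member called, while DESeq2 called 6 higher and 2 lower. NDUFB10, a membrane-arm subunit with disulfide-bonded cysteines, had 30.0 and 27.3 CPM at 48 h, against 44.7 and 46.9 CPM at 0 h (log2 change -0.67 ± 0.12 (SE), adjusted p = 3.15e-05). NDUFA3, a small membrane-arm subunit, had 21.8 and 19.3 CPM, against 31.1 and 33.6 CPM (log2 change -0.65 ± 0.15 (SE), adjusted p = 0.000853), and 28 and 31.1 CPM at 72 h, a difference of 0.52 between 72 h and 48 h. NDUFA3 was not called in that comparison without CHIR 48 h replicate 2 or CHIR 72 h replicate 2. NDUFS6 had 26.3 and 25.3 CPM at 48 h, against 37.2 and 42.7 CPM at 0 h (log2 change -0.63 ± 0.13 (SE), adjusted p = 0.000233). All 3 genes had groups that did not overlap at 48 h. CYC1 had 60.7 and 64.4 CPM at 48 h, against 91.7 and 91.7 CPM at 0 h (log2 change -0.55 ± 0.13 (SE), adjusted p = 0.00119), and 80.6 and 82.3 CPM at 72 h, where it was not called (adjusted p = 0.389). UQCRFS1 followed the same course, with 76 and 68.8 CPM at 48 h and 90.4 and 84.1 CPM at 72 h, against 99.4 and 110.0 CPM at 0 h (log2 changes -0.53 and -0.26, adjusted p = 0.000895 and 0.122). UQCRC1 had 163 and 156 CPM at 72 h, against 160.0 and 159 CPM at 0 h, and was not called (log2 change 0.00, adjusted p = 1). NDUFV1 had 75.3 and 78.3 CPM at 72 h, against 79.6 and 73.9 CPM at 0 h, which overlapped.

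At CHIR 72 h the lower members were NDUFB4, NDUFB9, NDUFS1 and NDUFB10. NDUFS1 had 103 and 86.8 CPM at 72 h, against 142 and 135 CPM at 0 h (log2 change -0.54 ± 0.11 (SE), adjusted p = 0.000213). NDUFB9 had 49.4 and 42 CPM, against 63.5 and 70.5 CPM (log2 change -0.55 ± 0.11 (SE), adjusted p = 0.000255). Both lay clear of the 0 h libraries. NDUFB4, a membrane-arm subunit, had 67.9 and 65.1 CPM, against 96.8 and 98.2 CPM (log2 change -0.55 ± 0.16 (SE), adjusted p = 0.00897), and lost its call without CHIR 0 h replicate 2 (adjusted p = 0.0531) or CHIR 72 h replicate 2 (adjusted p = 0.0583). NDUFB10 lost its call without CHIR 0 h replicate 2 (adjusted p = 0.0608) or CHIR 72 h replicate 1 (adjusted p = 0.0861). NDUFA4 changed by -0.33 at 48 h (adjusted p = 0.0404) and was not called at 72 h (log2 change -0.29, adjusted p = 0.0949).

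Earlier CHIR times held isolated changes. At 8 h 1 member was called lower and 0 higher, where 11.7% of all genes were lower and 9.19% higher, and taking out replicate 1 or 2 of CHIR 8 h gave 0 or 2 lower members. RLE scaling gave 1 higher and 1 lower, with a median of 0.02 where it was -0.04. At 16 h NDUFV3 was called higher, with 45.6 and 45 CPM against 33.2 and 36.5 CPM at 0 h (log2 change 0.38 ± 0.12 (SE), adjusted p = 0.0288), where 6.54% of all genes were higher. At the same time NDUFB4, NDUFB6, NDUFA3, NDUFB8 and UQCRH were called lower by -0.39 to -0.63, where 9.34% of all genes were lower. Of those 6 calls 3 or 2 were left when replicate 1 or 2 of CHIR 0 h was taken out, and 0 when replicate 2 of CHIR 16 h was. At 24 h NDUFS4 was higher and NDUFB10 lower (-0.37, adjusted p = 0.0333), where 8.61% of all genes were lower and 5.9% higher. With RLE scaling 3 were higher and 1 lower at 24 h. The NDUFB10 call was lost when replicate 1 or 2 of CHIR 0 h (adjusted p = 0.0882 and 0.194) or replicate 1 of CHIR 24 h (adjusted p = 0.325) was left out. NDUFV3 also rose early in the bcat arm, to 39.8 and 43 CPM at 8 h and 44.6 and 42.7 CPM at 16 h, against 25 and 31.7 CPM at 0 h (log2 changes 0.52 and 0.60, adjusted p = 0.00496 and 0.00221). The call at bcat 8 h was lost without bcat 0 h replicate 1 (0.40, adjusted p = 0.063).

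The change in the CHIR arm was set against the change in the bcat arm at the shared times of 8, 24, 48 and 72 h, each relative to its own 0 h cultures. At 72 h the difference was positive and called in 9 members and negative in none, that is, the change was more positive with CHIR99021 than with induced beta-catenin. Among all tested genes 3.21% were called in the positive direction and 4% in the negative, and the median difference was 0.24 for the members and -0.07 for all genes. UQCRC2 had 159 and 154 CPM in CHIR 72 h libraries against 142 and 153 in CHIR 0 h, and 123 and 114 CPM in bcat 72 h libraries against 186 and 208 in bcat 0 h (log2 difference 0.82 ± 0.14 (SE), adjusted p = 0.000311). NDUFA9 had 34.2 and 26.8 CPM in CHIR 72 h libraries against 32.2 and 34.7 in CHIR 0 h, and 21.6 and 22.6 CPM in bcat 72 h libraries against 51.5 and 43.2 in bcat 0 h (log2 difference 0.96 ± 0.21 (SE), adjusted p = 0.00361). NDUFA1, a small membrane-arm subunit, had 37.9 and 37.7 CPM in CHIR 72 h libraries against 30.1 and 32.6 in CHIR 0 h, and 30.5 and 29.2 CPM in bcat 72 h libraries against 38.8 and 45.3 in bcat 0 h (log2 difference 0.77 ± 0.20 (SE), adjusted p = 0.014). In each of these 3 genes the bcat 72 h libraries lay below both of their 0 h libraries, and for NDUFA1 the CHIR 72 h libraries lay above theirs. CYC1 differed by 0.73, NDUFB5 by 0.74, NDUFC1 by 0.68, NDUFV2 by 0.65, NDUFA4 by 0.64 and UQCR11 by 0.64, with adjusted p between 0.015 and 0.041.

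The difference at 72 h was not shared by all members. NDUFS1 was lower in both arms and differed by 0.05 ± 0.15 (SE, adjusted p = 0.914), and NDUFB10 by 0.04 ± 0.17 (SE, adjusted p = 0.966). Taking out replicate 1 or 2 of CHIR 0 h left 2 or 5 called differences, taking out replicate 1 of CHIR 72 h left 3, and taking out replicate 2 of bcat 0 h or of bcat 72 h left 3 or 4. UQCRC2 was the member called in each of the 15 alternatives computed. The 0 h levels of the arms already differed in some of these genes. Against CHIR 0 h, bcat 0 h cultures had higher NDUFA9 (0.49), NDUFB5 (0.47), NDUFA1 (0.44) and UQCRC2 (0.42) and lower NDUFB6 (-0.49), all called, where 6.06% of all genes were higher and 9.6% lower. Of those 5 calls 0 or 1 were left when replicate 1 or 2 of CHIR 0 h was taken out, and 2 when either bcat 0 h library was. The 4 higher genes are among the 9 whose differences were called, and both results use the same 0 h libraries.

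**Figure D4:**
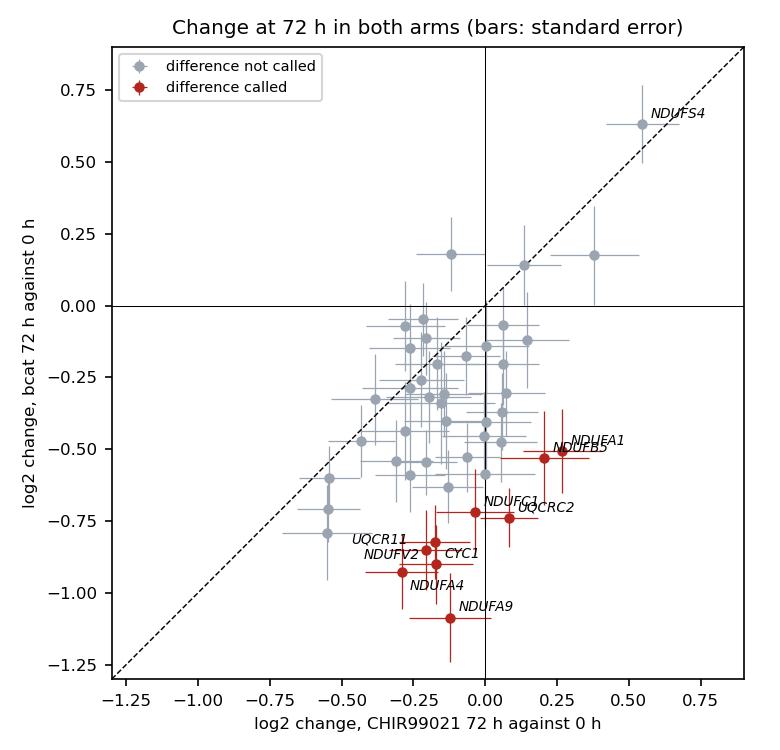
Log2 change of each member at bcat 72 h against its log2 change at CHIR 72 h, each from its own 0 h cultures, with bars of 1 standard error. The 9 members whose difference between arms was called are drawn in red and lie on the side where the bcat change is the more negative; NDUFS4 is positive in both arms.

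At earlier times the arms differed in fewer members and in both directions. At 24 h CYC1 (log2 difference 0.62 ± 0.19 (SE), adjusted p = 0.0488) and UQCRC2 (log2 difference 0.69 ± 0.14 (SE), adjusted p = 0.00362) were called, both higher, where 1.65% of all genes were called in that direction and 3.3% in the other. Only 1 of them was called when any library of CHIR 0 h or CHIR 24 h, replicate 2 of bcat 0 h or replicate 1 of bcat 24 h was taken out. CYC1 had 93.8 and 103 CPM in CHIR 24 h libraries against 91.7 and 91.7 in CHIR 0 h, and 58.9 and 71.8 CPM in bcat 24 h libraries against 89.1 and 97.9 in bcat 0 h. The gene was therefore below its 0 h level in the bcat arm and at or above it in the CHIR arm. At 48 h NDUFV2 (0.57) and UQCRC2 (0.49) differed in the positive direction and NDUFA3 (-0.75), NDUFS6 (-0.67) and NDUFV3 (-0.53) in the negative, with adjusted p between 0.0125 and 0.0404. Among all genes 5.95% were called positive and 10.6% negative at 48 h, so the members' count was no larger than the background. The 5 calls numbered 2 when replicate 2 of CHIR 0 h or replicate 1 of bcat 0 h was taken out, and 3 for replicate 1 of CHIR 0 h or replicate 2 of CHIR 48 h or bcat 48 h. NDUFS6 was below its 0 h level in the CHIR arm at 48 h, with 26.3 and 25.3 CPM against 37.2 and 42.7 in CHIR 0 h. In bcat 48 h libraries NDUFS6 had 35.6 and 37 CPM, against 30.0 and 39.2 in bcat 0 h. CYC1 was below its 0 h level in both arms by 48 h, with 60.7 and 64.4 CPM in CHIR and 59.5 and 73.7 in bcat libraries. At 8 h edgeR called 0 members, DESeq2 called 1, and 3 had an unadjusted p under 0.05, where 2.7% of all genes were called (0.617% positive, 2.08% negative). The members' median difference at 8 h was 0.04, and 0.15 with RLE scaling.

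The CHIR and Wnt3a arms could be compared at 24 and 48 h. At 24 h the CHIR change was the higher in NDUFA9 (0.69, adjusted p = 0.0299) and NDUFV3 (0.53, adjusted p = 0.0474), where 4.37% of all genes were called in that direction and 5.56% in the other. Neither call held when either CHIR 0 h library, replicate 1 of CHIR 24 h, or replicate 2 of Wnt3a 0 h or 24 h was taken out, and 1 held for replicate 2 of CHIR 24 h or replicate 1 of Wnt3a 24 h. At 48 h it was the lower in NDUFB9, NDUFB10, NDUFA3, NDUFA9, NDUFA13 and NDUFA4, by -0.52 to -0.66, where 9.35% of all genes were called in that direction and 6.75% in the other. The 6 calls numbered 1 when replicate 2 of CHIR 48 h or Wnt3a 48 h was taken out, 2 for either CHIR 0 h library or replicate 1 of Wnt3a 0 h, and 3 for replicate 1 of Wnt3a 48 h. NDUFB9 was called in each of the 15 alternatives. NDUFB9 had 46.6 and 41.8 CPM in CHIR 48 h libraries against 63.5 and 70.5 in CHIR 0 h, and 57.6 and 57.5 CPM in Wnt3a 48 h libraries against 53.4 and 56.9 in Wnt3a 0 h (log2 difference -0.65 ± 0.16 (SE), adjusted p = 0.00336). NDUFB9 was thus below its 0 h level with CHIR99021 and not with Wnt3a at that time.

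The 0 h cultures of the arms were not alike for these genes. Against Wnt3a 0 h, bcat 0 h cultures had 16 members called higher and 1 lower, where 12% of all genes were called in each direction, with a median log2 difference of 0.29. CHIR 0 h cultures had 7 called higher and 1 lower than Wnt3a 0 h, where 6.76% of all genes were higher and 4.12% lower, with a median of 0.27. NDUFV3 was the lower gene in both, with 25 and 31.7 CPM in bcat 0 h and 33.2 and 36.5 CPM in CHIR 0 h, against 52.4 and 62.1 CPM in Wnt3a 0 h cultures (log2 differences -1.01 and -0.74). NDUFA1 differed most in the other direction, with 38.8 and 45.3 CPM in bcat 0 h, against 17.5 and 22.6 CPM in Wnt3a 0 h (log2 difference 1.02 ± 0.15 (SE), adjusted p = 7.92e-06). For bcat 0 h the 17 calls numbered 10 without Wnt3a 0 h replicate 1 and 5 without bcat 0 h replicate 2. For CHIR 0 h the 8 calls numbered 2 or 1 when replicate 1 or 2 of CHIR 0 h was taken out, and 1 or 13 when replicate 1 or 2 of Wnt3a 0 h was.

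Genes of the other respiratory complexes, from lists chosen with earlier results known, were lower at the same late times. At bcat 72 h 9 of 10 nuclear complex IV genes, 9 of 15 ATP synthase genes and 3 of 4 complex II genes were lower, with median log2 changes of -0.57, -0.43 and -0.70. At Wnt3a 96 h the counts were 8, 14 and 4. At CHIR 48 h they were 4, 4 and 1. Among all genes tested 13.6% were lower at bcat 72 h, 21% at Wnt3a 96 h and 18.1% at CHIR 48 h. Small counts in these lists, such as 3 of 16 assembly genes at bcat 72 h, were near those shares. COX7C, a small complex IV subunit, had 169 and 134 CPM at bcat 72 h, against 328 and 369 CPM at bcat 0 h (log2 change -1.2 ± 0.12 (SE), adjusted p = 8.26e-09), and changed by -0.97 at CHIR 48 h. CYCS, cytochrome c itself, had 96.3 and 71.5 CPM at bcat 72 h, against 177 and 226 CPM at bcat 0 h (log2 change -1.27 ± 0.14 (SE), adjusted p = 5.13e-08), and 92.9 and 107 CPM at Wnt3a 96 h, against 224 and 268 CPM at Wnt3a 0 h (log2 change -1.31). NDUFAB1, the acyl carrier protein that is also a complex I subunit and lies outside the naming rule, was lower at both times (-0.89 and -0.66). Among the 16 complex I assembly genes 12 were lower at Wnt3a 96 h, against 3 lower and 1 higher at bcat 72 h and 5 lower at CHIR 48 h. NDUFAF7, a methyltransferase needed for complex I assembly, had 20.2 and 13.3 CPM at bcat 48 h, against 67.3 and 82.4 CPM at bcat 0 h (log2 change -2.14 ± 0.20 (SE), adjusted p = 1.74e-09), and 19.6 and 17.1 CPM at CHIR 48 h, against 33.2 and 38.8 CPM at CHIR 0 h (log2 change -0.97). It was not called at Wnt3a 96 h (-0.19, adjusted p = 0.468). Of the 6 complex III assembly genes 3 were lower at Wnt3a 96 h and 2 at CHIR 48 h, UQCC2 (-0.51) and UQCC3 (-0.56).

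Glycolysis genes did not move against the respiratory genes. Of 18, 14 were lower and 1 higher at bcat 72 h (median -0.77), and 14 lower and 2 higher at Wnt3a 96 h (median -1.3). At CHIR 48 h 6 were lower and 3 higher, and at CHIR 72 h 10 lower and 1 higher. Among all genes 13.6%, 21%, 18.1% and 13.4% were lower in those comparisons, and 13.6%, 18.8%, 15.7% and 11.5% higher. PDK1, the kinase that holds back pyruvate entry into the citrate cycle, was among the higher genes at 48 h in both the bcat and CHIR arms, with 389.9 and 296 CPM at bcat 48 h against 148 and 114 CPM at bcat 0 h (log2 change 1.40 ± 0.13 (SE), adjusted p = 1.82e-09) and 393 and 419.6 CPM at CHIR 48 h against 164 and 157 CPM at CHIR 0 h (log2 change 1.34 ± 0.13 (SE), adjusted p = 9.6e-10). PFKFB4, which makes the activator of phosphofructokinase, was higher at CHIR 48 h (0.97) and lower at bcat 48 h (-0.82). HK2 (-1.31 at CHIR 48 h) and PFKP (-1.23 at CHIR 48 h and -2.37 at bcat 48 h), which phosphorylate sugars early in the pathway, were lower. Of 13 citrate cycle genes 10 were lower and 1 higher at Wnt3a 96 h and 4 lower at bcat 72 h. Of 14 known regulators of mitochondrial genes 9 were lower at CHIR 48 h, 9 at Wnt3a 96 h and 3 at bcat 72 h. The regulator count at bcat 72 h was near the share of all genes. MYC, a broad activator of growth and metabolic genes, had 5.12 and 5.11 CPM at CHIR 48 h, against 54.3 and 48.7 CPM at CHIR 0 h (log2 change -3.33 ± 0.23 (SE), adjusted p = 4.64e-12), and 7.24 and 6.79 CPM at bcat 48 h, against 22.6 and 21.7 CPM at bcat 0 h (log2 change -1.65). NDUFA4L2, a close relative of NDUFA4, was higher at CHIR 48 h (3.66), with 6.5 and 8.21 CPM against 0.855 and 0.355 CPM at CHIR 0 h.

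The 8 mitochondrially encoded subunits of complexes I and III did not follow the nuclear members downward. Their median log2 change was 0.54 at bcat 72 h and 0.58 at Wnt3a 96 h, with smallest adjusted p of 0.281 and 0.229. At CHIR 16 h 4 were called higher (median 1.58) and at bcat 8 h 5 were (median 1.58), where 6.54% and 10.7% of all genes were higher. The summed level of the 8 was 939 and 951 CPM at CHIR 16 h. At bcat 8 h it was 474 CPM in replicate 1 but 110 CPM in replicate 2, which overlapped the bcat 0 h libraries. At CHIR 48 h MT-ND5, a proton-pumping subunit, had 85 and 108 CPM, against 39 and 37 CPM at CHIR 0 h (log2 change 1.34 ± 0.42 (SE), adjusted p = 0.0187). Their summed level was 128 and 68.9 CPM in bcat 0 h, against 347 and 314 CPM in CHIR 0 h, and 3 of 8 were called lower in bcat 0 h (median -1.62). At CHIR 0 h all mitochondrially encoded RNA took 7.68% and 8.01% of counts, so nearly all of that share came from transcripts other than these 8. The low mitochondrial share of the bcat libraries was present in every bcat group, and its part in the results was not tested.

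Other short coding genes moved in the same direction as the members at the late times. The class held 657 protein-coding genes with a principal transcript of at most 1500 bases and a mean level within the members' range of 18.9 to 149 CPM, and 33 members had transcripts that short. At bcat 72 h 28.9% of that class was lower (median -0.16), at Wnt3a 96 h 59.1% (median -0.49) and at Wnt3a 120 h 37.3% (median -0.28). At CHIR 48 h 23% was lower (median -0.05) and at bcat 48 h 13.5% (median -0.02). Of the 46 members 22, 31, 20, 11 and 11 were lower in those comparisons. At Wnt3a 96 h and 120 h 67.4% and 43.5% of members were lower, with medians of -0.54 and -0.33, so both times were near the class. At CHIR 48 h the members' share called lower was also near that of the class, with a member median of -0.18. At bcat 72 h the class median was nearer to 0 than the members' -0.40. At Wnt3a 8 h the class had a median of 0.19, where the members' was 0.24. Long intergenic noncoding RNA genes had medians of 0.65 at Wnt3a 96 h and 0.31 at bcat 72 h. The part of transcript length in the members' changes was not tested.

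**Figure D5:**
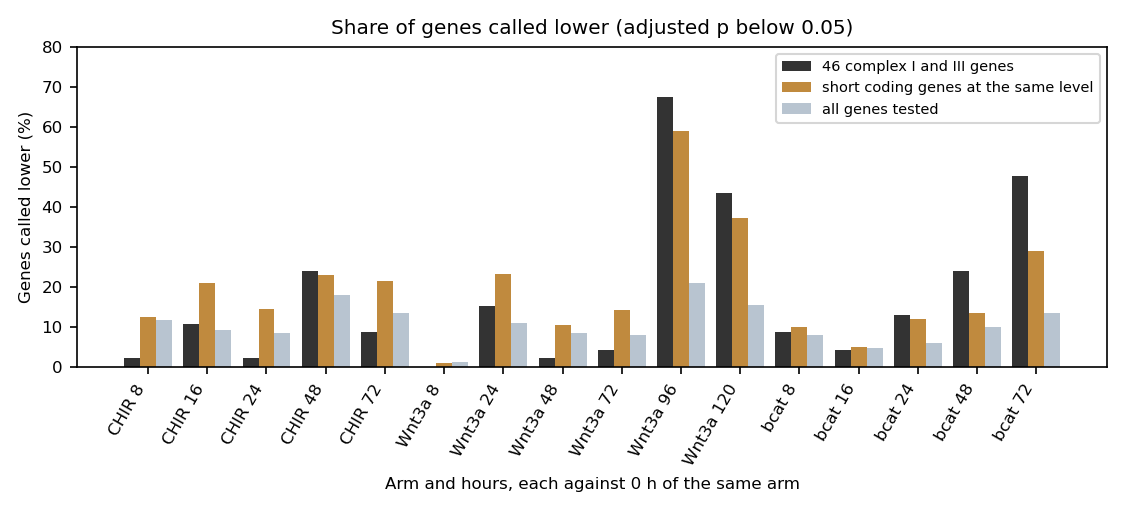
Percent of genes called lower in each comparison with 0 h cultures, for the 46 members, for 657 short protein-coding genes at the members' level and for all 24304 tested genes. Members stand above all genes at bcat 72 h, Wnt3a 96 h and Wnt3a 120 h. They stand near the short genes at Wnt3a 96 h and Wnt3a 120 h, where 59.1% and 37.3% of the short genes were lower.

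Markers of cell identity changed in every arm. The summed level of the 5 pluripotency markers was lowest at CHIR 48 h, with 157 to 160 CPM. The members' median log2 change at that time was -0.18. The marker sum was 382 to 395 CPM at bcat 72 h, against 1550 to 1888 CPM at bcat 0 h. It was 800.1 to 872 CPM at Wnt3a 96 h, against 1942 to 2327 CPM at Wnt3a 0 h, and 469.8 to 513 CPM at CHIR 72 h, against 1798 to 1823 CPM at CHIR 0 h. The 4 primitive streak markers summed to 169 to 187 CPM at bcat 72 h, 129 to 149 CPM at Wnt3a 96 h and 555 to 583 CPM at CHIR 72 h, against at most 1.07 CPM at 0 h. The genes behind these sums differed. At Wnt3a 96 h EOMES had 107 to 121 CPM and T (brachyury) 0.71 to 1.16 CPM. At bcat 72 h EOMES had 6.61 to 10.2 and T 90.7 to 110 CPM, and at CHIR 72 h they had 8.93 to 19.2 and 277 to 296 CPM. The 4 definitive endoderm markers summed to 185 to 264 CPM at Wnt3a 96 h, 81.2 to 81.5 CPM at bcat 72 h and 48.9 to 76.6 CPM at CHIR 72 h. At bcat 72 h CXCR4 alone gave 72.7 to 76.1 CPM of that sum, with SOX17 at 0.11 to 0.22 and FOXA2 at 0 to 0.07 CPM, and at CHIR 72 h CXCR4 gave 43.3 to 67.4 CPM, with SOX17 at 0. The 4 amnion and trophoblast markers summed to 209.96 to 236 CPM at bcat 72 h, 201 to 202 CPM at CHIR 72 h and 5.13 to 5.58 CPM at Wnt3a 96 h. CDX2, which mesoderm of the posterior embryo also expresses, made up nearly all of the first 2 sums (208.9 to 236 and 201.05 to 201.55 CPM), and GATA3, TFAP2A and CGA were each at most 0.53 CPM at bcat 72 h and 0.23 CPM at CHIR 72 h. The presomitic mesoderm markers reached 45.0 to 69.4 CPM at bcat 72 h and 66.9 to 103 CPM at CHIR 72 h, but 4.11 to 4.98 CPM at Wnt3a 96 h, with MSGN1 at 0. Markers of cardiac muscle, a tissue rich in respiratory complexes, summed to at most 6.47 CPM in any group, and the neural marker PAX6 was at 0 at bcat 72 h, CHIR 72 h and Wnt3a 96 h. The part of cell identity in the members' changes was not tested.

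The members are spread over 18 chromosomes, 8 of them on chromosome 19, so they are not neighbours sharing one region. By symbol in GENCODE release 29 (GRCh38), NDUFA9 spans chromosome 12, 4649095 to 4694317, and NDUFS4 chromosome 5, 53560633 to 53683340, both on the plus strand. NDUFS6 spans chromosome 5, 1801400 to 1816605, on the plus strand and UQCRC2 chromosome 16, 21952660 to 21983660, on the plus strand. UQCR11 spans chromosome 19, 1597172 to 1605490, on the minus strand. Named pseudogenes existed for 16 members and held at most 5.90% of a member's counts, and 24 members overlap a gene on the opposite strand and 18 a gene on the same strand. The library kit marks strand, but whether the counting used it is not given in the sources used here, so reads of overlapping partners and close copies remain uncertain for those members.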

How the data were processed

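Total RNA was sequenced from 38 libraries, and 1 gene table with 43412 symbols was deposited for the whole series. Per the submitters' processing notes the authors assigned reads with kallisto 0.43.0, so the deposited unit is estimated counts. For the genome build, annotation and strand setting, no value is given in the sources used here. Each deposited column turned out to be estimated counts times a constant of its own (0.265 to 6.58). Columns were divided by it and rounded. Before rounding, 56.9% to 81.1% of the low values (at most 20 counts) were whole to within 0.1. The deposited totals were 15.1 to 42.9 M (counts divided by 1e6) per column, and depth after division was 2.45 to 65.75 M. Dates had replaced 27 symbols, none of them a member.

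All 37 libraries entered 1 quasi-likelihood fit in edgeR 4.0.16 (R 4.3.3, limma 3.58.1) with 19 group means, TMM scaling, trended dispersions (0.00921 to 0.246), robust estimation and 18 residual degrees of freedom. After filterByExpr by group, 24304 genes were tested, and Benjamini-Hochberg adjustment ran over all of them within each comparison. Differences between arms are the change in 1 arm minus the change in the other. CPM are counts in every 1e6 of the TMM-effective library. Simulated counts had 100 genes changed 2-fold and 100 genes changed 4-fold, drawn over a wider range of levels than the members span, and no other changes. On these counts 86 of 100 genes changed 2-fold were recovered for CHIR 48 h against CHIR 0 h over 22439 genes, with 5 unchanged genes called. For bcat 48 h against bcat 0 h over 22475 genes 84 were recovered with 8 unchanged genes called, for Wnt3a 72 h against Wnt3a 0 h over 22560 genes 72 with 7, and for the CHIR and bcat difference at 48 h over 22590 genes 48 with 5.

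Alternatives were RLE scaling, the Wald test of DESeq2 1.42.0, no filter, replicate numbers as a block, values as deposited, protein-coding genes alone, leaving out each library, and leaving out the 4 libraries in doubt. The members and lists were chosen with earlier results of these data known. Comparisons within the Wnt3a arm and between CHIR and Wnt3a at 24 and 48 h, and the fit on protein-coding genes alone, were added after seeing the data. Named members were, at 8, 24, 48 and 72 h in the CHIR and bcat arms, the 3 per direction with the largest called change and no overlap between groups. For the difference of these arms at 48 h they were the 3 per direction with the largest called difference, with no condition on overlap. NDUFS1, NDUFV1, NDUFA4, UQCRC1, UQCRFS1 and CYC1 were always named. From each list the 2 per direction with the largest called change at CHIR 48 h and bcat 48 h were taken. All other genes were named after their values had been seen. Gene positions came from GENCODE release 29 (GRCh38) and promoters from RefSeq (GRCh38.p14). For 1 member the counts of members include it, and its own values are not reported here.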

Additional observations from a re-analysis of the deposited data

Results flagged for a closer look

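The results given here are differences between arms in the change from 0 h that passed the test of the difference itself, by edgeR's quasi-likelihood test with an adjusted p under 0.05. In each of 6 such comparisons 46 members were tested. For the CHIR change minus the bcat change at 24 h they were CYC1 (0.62) and UQCRC2 (0.69). At 48 h they were NDUFV2 (0.57) and UQCRC2 (0.49) in the positive direction and NDUFA3 (-0.75), NDUFS6 (-0.67) and NDUFV3 (-0.53) in the negative. At 72 h all 9 were positive: NDUFA9 (0.96), UQCRC2 (0.82), NDUFA1 (0.77), NDUFB5 (0.74), CYC1 (0.73), NDUFC1 (0.68), NDUFV2 (0.65), NDUFA4 (0.64) and UQCR11 (0.64). UQCRC2 was the member called at each of these 3 times.

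For the CHIR change minus the Wnt3a change at 24 h they were NDUFA9 (0.69) and NDUFV3 (0.53), both positive. At 48 h all 6 were negative: NDUFA3 (-0.66), NDUFB9 (-0.65), NDUFB10 (-0.62), NDUFA9 (-0.61), NDUFA13 (-0.52) and NDUFA4 (-0.52). NDUFA9 was thus called at both times in opposite directions. Differences at separate times share the 0 h libraries of their arms. Groups held at most 2 libraries, so no library could be tested as standing apart within its group.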

How the results depend on the processing

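Of the changes of single members recomputed under the alternatives, none changed sign while called, 109 lost their call, 24 gained one and 1101 kept their direction and side of the threshold. The counts of members called that moved by over 1.5 times follow, with the count as reported first. With RLE scaling, CHIR 8 h had 1 and then 2, CHIR 24 h 2 and 4, bcat 8 h 5 and 9, bcat 16 h 3 and 8, bcat 24 h 7 and 12, Wnt3a 8 h 2 and 1, Wnt3a 48 h 2 and 4, Wnt3a 72 h 2 and 6. Further, CHIR minus bcat had 0 and 1 at 8 h and 2 and 4 at 24 h, bcat 0 h against CHIR 0 h 5 and 9, CHIR 0 h against Wnt3a 0 h 8 and 5, and CHIR 72 h against 48 h 2 and 4. With DESeq2 those counts were 3 (CHIR 8 h), 4 (CHIR 24 h), 9 (bcat 8 h), 10 (bcat 16 h), 15 (bcat 24 h), 4 (Wnt3a 8 h), 5 (Wnt3a 48 h), 7 (Wnt3a 72 h), 1, 7, 8 and 15 (CHIR minus bcat at 8, 24, 48 and 72 h, reported as 0, 2, 5 and 9), 4 (CHIR minus Wnt3a at 24 h, reported as 2), 10 (bcat 0 h against CHIR 0 h), 8 (CHIR 72 h against 48 h) and 11 (bcat 72 h against 48 h, reported as 3). With protein-coding genes alone they were 2, 4 and 8 (CHIR 8, 24 and 72 h), 9, 6 and 11 (bcat 8, 16 and 24 h), 5 and 6 (Wnt3a 48 and 72 h), 1 and 4 (CHIR minus bcat at 8 and 24 h), 4 (CHIR minus Wnt3a at 24 h), 9 (bcat 0 h against CHIR 0 h), 7 (CHIR 72 h against 48 h) and 5 (bcat 72 h against 48 h). With no filter they were 3 (CHIR 16 h, reported as 6), 1, 1, 4 and 6 (bcat 8, 16, 24 and 48 h), 0 and 0 (Wnt3a 8 and 72 h), 0 and 2 (CHIR minus bcat at 24 and 48 h), 1 and 3 (CHIR minus Wnt3a at 24 and 48 h, reported as 2 and 6), 1, 10 and 4 (bcat 0 h against CHIR 0 h, bcat 0 h against Wnt3a 0 h, CHIR 0 h against Wnt3a 0 h), 1 (CHIR 72 h against 48 h) and 7 (bcat 72 h against 48 h). With values as deposited they were 5 (bcat 16 h), 4 and 1 (Wnt3a 48 and 72 h) and 1 (CHIR minus Wnt3a at 24 h). Without the 4 libraries in doubt they were 2 and 6 (bcat 24 and 48 h), 0, 1 and 7 (Wnt3a 8, 48 and 72 h), 1 and 1 (CHIR minus bcat at 24 and 48 h), 2 (CHIR minus Wnt3a at 48 h), 11 and 1 (bcat 0 h and CHIR 0 h against Wnt3a 0 h) and 6 (bcat 72 h against 48 h). Counts over all genes moved with the setting too, so a moved member count is not by itself a result about the members. For CHIR minus bcat at 8 h DESeq2 called 1063 of 24304 genes, against 656 in the main fit, and the fit with no filter called 765 of 43412. For bcat 72 h against 48 h DESeq2 called 1966 genes, where the main fit called 661 higher and 842 lower. The cause of these shifts was not tested.

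Leaving out 1 library at a time gave 0 to 2, 0 to 6, 1 to 2, 6 to 10 and 3 to 5 members called at CHIR 8, 16, 24, 48 and 72 h. It gave 2 to 3, 1 to 4, 1 to 6, 6 to 13 and 14 to 24 at bcat 8, 16, 24, 48 and 72 h, and 0 to 3, 2 to 7, 0 to 2, 0 to 5, 19 to 33 and 4 to 22 at Wnt3a 8, 24, 48, 72, 96 and 120 h. For CHIR minus bcat it gave 0 to 0, 1 to 2, 2 to 4 and 2 to 9 at 8, 24, 48 and 72 h, and for CHIR minus Wnt3a 0 to 2 and 1 to 9 at 24 and 48 h. For 0 h cultures it gave 0 to 2 (bcat against CHIR), 5 to 17 (bcat against Wnt3a) and 1 to 13 (CHIR against Wnt3a), for CHIR 72 h against 48 h 0 to 3 and for bcat 72 h against 48 h 1 to 5. In every alternative computed for it, 11 of the 23 calls at bcat 72 h, 19 of 31 at Wnt3a 96 h, 4 of 20 at Wnt3a 120 h and 6 of 12 at CHIR 48 h were made.

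Same-numbered replicates did not deviate together (correlations -0.0827 to 0.111), so the numbers were not taken as pairs. With replicate numbers as a block within each arm, Wnt3a 8 h had 0 members called, Wnt3a 72 h 1 and CHIR minus Wnt3a at 24 h 1. The block gave 23 at bcat 72 h, 14 at bcat 48 h, 30 at Wnt3a 96 h, 18 at Wnt3a 120 h, 11 at CHIR 48 h and 8 for CHIR minus bcat at 72 h. Among the 0 h libraries, Wnt3a 0 h replicate 1 held 2.45 M counts and bcat 0 h replicate 1 held 4.44 M. Each is the only 0 h library of its arm when replicate 2 is left out. On simulated counts 2-fold changes were recovered in 72 of 100 genes at Wnt3a 72 h and in 48 of 100 for CHIR minus bcat at 48 h. Far fewer genes were changed there than were called in the data, which makes the adjusted threshold stricter. These rates therefore need not hold for the members, and changes of that size and below can still be missed.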
